A study of Mus musculus with 12 samples.

Results

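Adgre1 encodes F4/80, a cell surface protein of mouse macrophages that is widely used to mark them, among them the Kupffer cells of the liver. F4/80 belongs to the adhesion G protein-coupled receptors: its outer part begins with a row of EGF-like repeats, small folds held together by bonds between cysteines, followed by a stalk and a receptor part that crosses the membrane. The circular RNAs (circRNAs) of this gene are closed loops, formed by back-splicing, in which an exon's end is joined to an upstream start. The back-splice junctions of Adgre1 were followed here in 12 mouse livers. A junction was counted as one of Adgre1 when it lay inside the GENCODE M21 gene with at least 1 end on an exon boundary of it, which held for 11 of the 16445 circRNAs of the table.

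All 12 mice, of a strain written C57BL/8 in the labels, received 10% carbon tetrachloride (CCl4), a toxin that scars the liver, by injection at 10 µl per 10 g of body weight 2 times a week for 8 weeks. No other treatment is recorded for the Control mice (6). The PZH mice (6) also received Pien Tze Huang, a herbal and animal remedy of Chinese medicine abbreviated PZH, every day from week 2 at 25 mg/ml. Livers of mice without CCl4 were not analysed here, so no value refers to a healthy liver, and the labels give neither age nor sex. Each library is 1 mouse. RNA came from whole liver tissue, in which a change in the number of macrophages and a change in Adgre1 RNA per macrophage cannot be told apart. Only back-splice junctions were followed, so the level of linear Adgre1 RNA is not known here.

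Levels are the authors' SRPBM, a signal of reads across a junction scaled to the reads of the library. Each circle is measured at its single junction, but the formula of SRPBM is not given in the sources used here, so levels are set beside each other on the assumption that it has no term for length. The libraries summed to 28922 to 41080 SRPBM over 3735 to 5510 circRNAs above 0. Taking the smallest value of a library as 2 read pairs, the libraries had 80442 to 130487 such equivalents in all, of which 103 to 205 lay on Adgre1. A circle without a value in a library is called listed at 0, since it may be present below what the table records.

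Adgre1 (ENSMUSG00000004730.15) lies on the plus strand of chromosome 17 from 57358691 to 57483527 (GRCm38), with 22 exons in the transcript used for numbering (ENSMUST00000086763.12), and 0 other annotated genes overlap it. Its circles fell mainly into 2: exons 11 to 12, at 25.0 SRPBM on average over the 12 libraries, and exons 6 to 7, at 12.9. Both were above 0 in every library. They are different parts of the receptor message. Exons 6 and 7 are among exons 3 to 9, each of which holds exactly 6 cysteine codons, the number of an EGF-like repeat. Exons 11 and 12 hold 2 and 0 cysteine codons and lie after that stretch.

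The joined annotated exons of both circles are given here to show which part of the message lies between the joined ends. Only the junction was measured, so whether each circle holds all of these bases, or intron bases between them, is not known. Capitals mark the first and last 10 bases, which the back-splice joins to each other, and both lie wholly in coding sequence. The sequences were read from the GENCODE M21 transcripts.
Adgre1 exons 11 to 12, chr17:57419322-57420524, plus strand: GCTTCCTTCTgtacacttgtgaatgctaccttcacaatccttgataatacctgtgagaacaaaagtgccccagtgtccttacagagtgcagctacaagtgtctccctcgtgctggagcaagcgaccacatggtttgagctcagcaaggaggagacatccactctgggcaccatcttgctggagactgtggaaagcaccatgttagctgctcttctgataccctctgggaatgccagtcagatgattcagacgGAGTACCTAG
Adgre1 exons 6 to 7, chr17:57406834-57408495, plus strand: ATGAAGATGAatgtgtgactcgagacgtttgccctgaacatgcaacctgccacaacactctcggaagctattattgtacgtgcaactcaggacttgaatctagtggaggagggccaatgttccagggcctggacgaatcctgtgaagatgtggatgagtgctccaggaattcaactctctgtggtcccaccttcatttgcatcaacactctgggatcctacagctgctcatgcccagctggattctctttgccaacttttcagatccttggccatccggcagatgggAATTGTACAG

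The junctions of 4 circles are printed as a read crosses them, since these letters are what separates one Adgre1 circle from another. The last 20 bases of the closing exon stand in lower case, and the first 20 bases of the opening exon in capitals. Exons 6 to 7 and 6 to 12 share the capitals, and exons 6 to 12 and 11 to 12 share the lower-case bases.
Exons 3 to 5: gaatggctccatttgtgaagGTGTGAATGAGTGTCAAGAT
Exons 6 to 7: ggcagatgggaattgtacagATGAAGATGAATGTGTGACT
Exons 6 to 12: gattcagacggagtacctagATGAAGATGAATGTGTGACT
Exons 11 to 12: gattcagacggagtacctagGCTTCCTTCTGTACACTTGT
The longest unbroken run of identical bases in any of the 21 pairs of exons 3 to 9 was 12 bases, shorter than the 20 bases shown on either side of a junction.

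**Figure D1:**
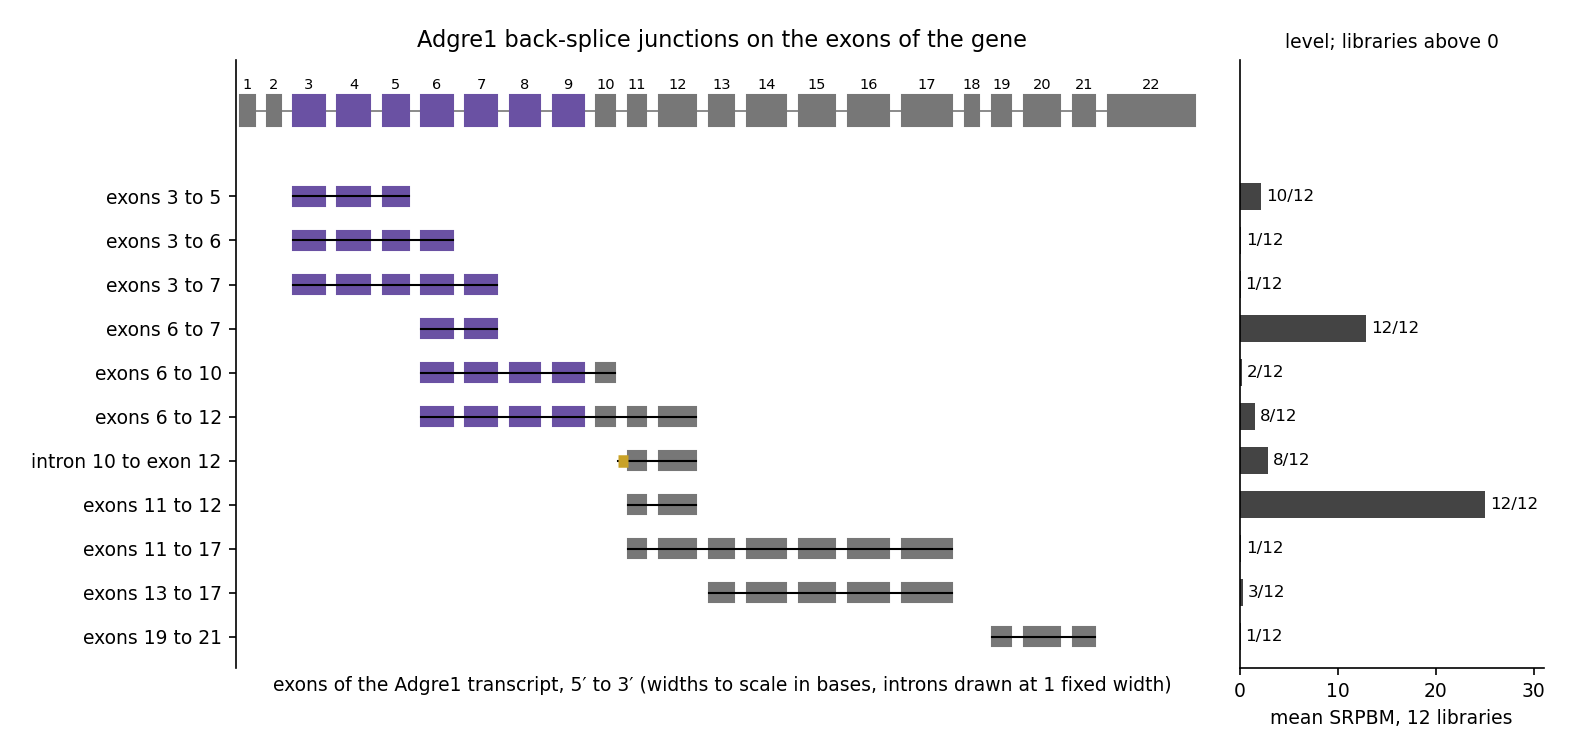
The 11 Adgre1 junctions on the 22 exons of the gene (left; exon widths to scale in bases, introns at 1 fixed width; violet, exons 3 to 9 with 6 cysteine codons each; yellow, the start inside intron 10, not to scale), with the mean SRPBM over 12 libraries as bars from 0 and the number of libraries above 0 beside each bar (right). Exons 11 to 12 and 6 to 7 reach 25.0 and 12.9 SRPBM, and every other circle stays at or below 2.87.

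The 11 junctions used few ends. Exon 6 opened 3 circles (closing at exons 7, 10 and 12), exon 3 opened 3 (closing at exons 5, 6 and 7), and exon 11 opened 2 (closing at exons 12 and 17). The end of exon 12 closed 3 circles, those of exons 6 to 12, of exons 11 to 12 and a circle that starts inside intron 10. None opened at exon 2, where 29.3% of the circRNAs tested over the whole table open. Circles closing beyond exon 12 were scarce: exons 11 to 17, 13 to 17 and 19 to 21 were above 0 in 1, 3 and 1 of 12 libraries, at no more than 1.93 SRPBM.

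One circle did not follow the annotated exons. It starts at position 57418888, 434 bases before exon 11 in the 5560-base intron 10, and ends with exon 12. It was above 0 in 8 libraries, with a highest value of 6.74 SRPBM in PZH 6. In read-pair equivalents, whose size differs between libraries, the highest value was 20.7, in another library. Of the 3870 circRNAs above 0 in at least 6 libraries, 64 (1.65%) had a single end on an exon boundary.

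The introns beside the circles differ. Exons 11 to 12 lie between introns of 5560 and 20730 bases, and the downstream one is longer than those of 81.2% of the circRNAs tested (median 7189 bases). Exons 6 to 7 lie between introns of 3972 and 2222 bases, of which the downstream one is longer than only 19.0%. Exon 3, where the circle of exons 3 to 5 opens, follows the 40170-base intron 2, longer than 89.9% of upstream introns (median 8537 bases). Intron sequences were not used here.

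The reading frame also separates the circles. With all annotated exons, the rings of exons 3 to 5 (423 bases), 6 to 7 (297 bases) and 6 to 12 (936 bases) are multiples of 3, as were 36.7% of the 3797 circRNAs tested with annotated exons throughout. Each of exons 3 to 9 is by itself a multiple of 3 in length. Any circle made wholly of these exons is therefore a multiple of 3, whichever ends it uses. Read once around in the frame of the gene, the rings of these circles contain 0 stop codons in 141, 99 and 312 codons. This was nearly fixed in advance. The coding sequence of the gene has 0 stop codons inside, so only the codon across the back-splice could have held one. The ring of exons 3 to 5 has 0 in-frame ATG codons, and those of exons 6 to 7 and 6 to 12 have 1 and 4. The ring of exons 11 to 12 has 262 bases, so that the frame shifts at each turn. Over 3 turns (262 codons) it meets 9 stop codons, the first after 303 bases. Translation was not measured.

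As to levels, exons 11 to 12 gave the strongest Adgre1 signal in every library and a circle that ranked 231 of 16445 circRNAs by its mean. It stood at 13.2, 22.8, 30.9, 19.1, 20.9 and 20.1 SRPBM in Control 1 to 6. In PZH 1 to 6 it stood at 23.1, 28.4, 41.8, 26.9, 28.0 and 25.5 SRPBM. All but 1 Control library lay below the lowest PZH library, and Control 3 lay inside the PZH range, so that the groups overlapped. Mean SRPBM was 28.9 ± 6.59 with PZH and 21.2 ± 5.78 without it (SD over 6 libraries each), a log2 fold change of 0.46 (SE 0.21) on the log2(SRPBM + 0.636) scale of limma. PZH 3 stood highest, and without it the log2 fold change was 0.35.

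Exons 6 to 7, from the EGF-like stretch, gave another pattern. It stood at 12.3, 17.4, 12.6, 15.0, 15.9 and 9.50 SRPBM in Control 1 to 6. In PZH 1 to 6 it stood at 11.6, 9.21, 12.5, 9.19, 14.8 and 14.8 SRPBM. The groups overlapped: Control 2, 4 and 5 lay above the highest PZH library, and PZH 2 and 4 lay below the lowest Control library. Mean SRPBM was 12.01 ± 2.52 with PZH and 13.8 ± 2.86 without it (SD over 6 libraries each), a log2 fold change of -0.19 (SE 0.24, 95% interval -0.69 to 0.31).

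A pair of weaker circles shares the closing end of exon 12. One of them, exons 6 to 12, spans EGF-like exons and the exons after them and was above 0 in all 6 PZH libraries, at 3.59, 2.97, 1.21, 3.24, 2.23 and 1.34 SRPBM. It was listed at 0 in Control 2, 3, 4 and 5 and stood at 1.89 and 2.04 SRPBM in Control 1 and 6. Over the whole table, 23 of 3870 circRNAs tested (0.594%) were above 0 in all PZH and in at most 2 Control libraries. The circle starting in intron 10 was listed at 0 in PZH 1 and stood at 4.62, 5.99, 1.57, 6.37 and 6.74 SRPBM in PZH 2 to 6. In Control it was listed at 0 in replicates 2, 4 and 5 and stood at 2.20, 4.69 and 2.20 SRPBM in replicates 1, 3 and 6. Both rested on few reads, with at most 10.6 and 20.7 read-pair equivalents in a library. Their log2 fold changes of 1.52 (SE 0.61) and 1.31 (SE 0.77) hang on how a 0 is treated and were 2.88 and 2.06 with a pseudocount of 0.127.

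A circle made wholly of EGF-like exons, exons 3 to 5, was above 0 in 5 libraries of each group. It stood at 2.86, 1.44, 4.11, 0, 1.19 and 1.84 SRPBM in Control 1 to 6. In PZH 1 to 6 it stood at 2.40, 3.36, 0, 3.10, 3.28 and 2.33 SRPBM. The Control libraries ran from 0 to 4.11 and enclosed the PZH libraries, which ran from 0 to 3.36. The log2 fold change was 0.29 (SE 0.67), and it was -0.06 without Control 4, 1 of the 2 libraries listed at 0.

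**Figure D2:**
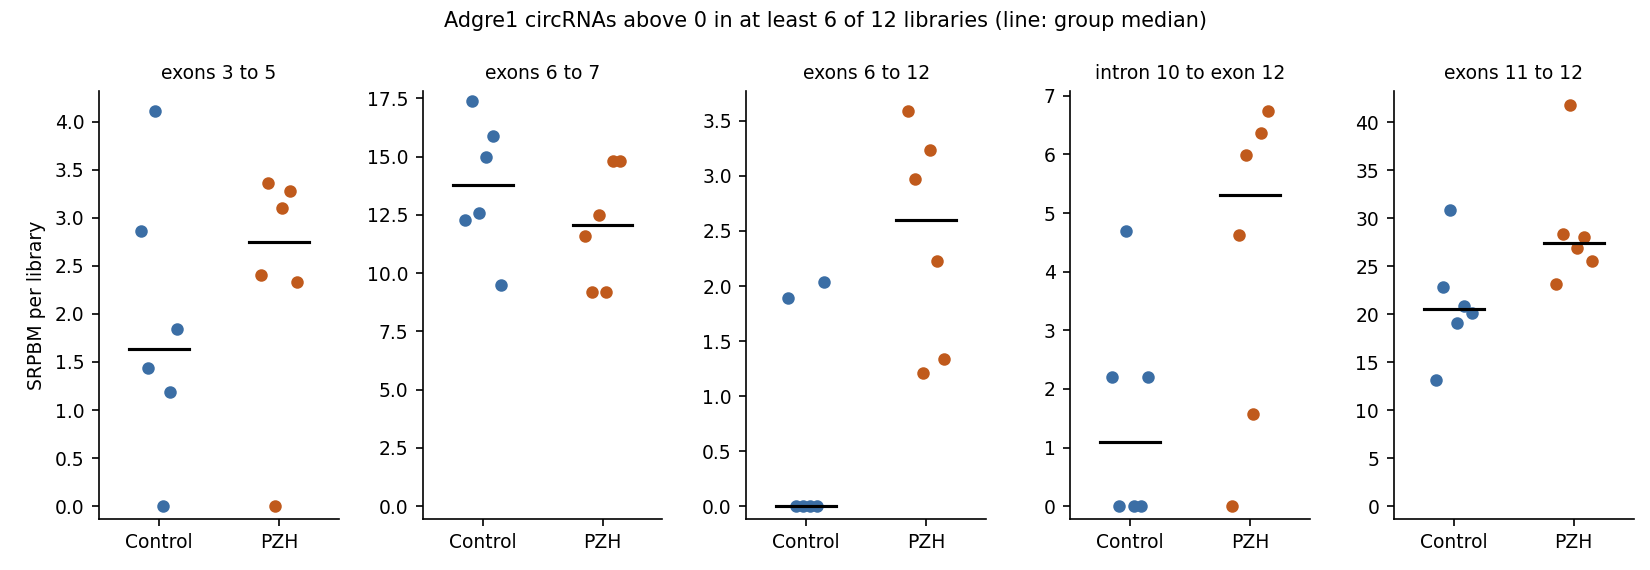
SRPBM per library of the 5 Adgre1 circRNAs above 0 in at least 6 libraries, 6 Control (blue) and 6 PZH (orange) points per panel with the group median as a line; each panel has its own axis from 0. For exons 11 to 12 the PZH points run from 23.1 to 41.8 and the Control points from 13.2 to 30.9, and in that of exons 6 to 7 the ranges are 9.19 to 14.8 and 9.50 to 17.4.

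The remaining 6 circles were above 0 in 1 to 3 libraries and were not tested. Exons 3 to 6 (1.23 SRPBM) and 3 to 7 (0.916) appeared in PZH 2 alone, and exons 11 to 17 (1.93) in PZH 3 alone. Exons 6 to 10 appeared in PZH 3 (1.62) and Control 1 (0.629), and exons 13 to 17 in PZH 3, PZH 4 and Control 6 at 0.729 to 1.48 SRPBM. Exons 19 to 21 (1.01) appeared in Control 1 alone. These values correspond to 2.00 to 6.01 read-pair equivalents.

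Adgre1 was taken up for this description with its difference between PZH and Control already known, so that its fold changes are a description and not an independent test. In the limma fit over all 3870 circRNAs, 2 passed an adjusted p under 0.05 (0.0517%), and 0 of the 5 Adgre1 circles tested did. Their adjusted p ran from 0.567 (exons 6 to 12) to 0.948 (exons 3 to 5). An unadjusted p under 0.05 was found for 2 of the 5, those of exons 6 to 12 and 11 to 12, and for 292 circRNAs in all (7.55%). The log2 fold change was above 0 for 4 of the 5, against 54.3% of all circRNAs tested, with a median of 0.46 against 0.06. A log2 fold change of at least 0.46, that of exons 11 to 12, was held by 25.0% of all circRNAs tested. The groups overlapped for all 5, while they did not for 26 of all circRNAs tested (0.672%), of which 19 (0.491%) were higher in every PZH library.

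Summed over its 11 circles, Adgre1 stood at 34.1, 41.6, 52.4, 34.0, 38.0 and 37.2 SRPBM in Control 1 to 6. In PZH 1 to 6 the sum was 40.6, 50.7, 65.7, 45.2, 54.6 and 50.7 SRPBM. Of the Control libraries, 4 lay below the lowest PZH library, and of the PZH libraries, 2 lay above the highest Control library. Mean SRPBM of the sum was 51.3 ± 8.61 with PZH and 39.6 ± 6.88 without it (SD over 6 libraries each). The limma fit over 2205 host gene sums gave a log2 fold change of 0.37 (SE 0.16), whose 95% interval ran from 0.04 to 0.70, and the adjusted p was 0.557. In that fit 0 host sums passed an adjusted p under 0.05 (0%), 181 had an unadjusted p under 0.05 (8.21%), among them Adgre1, 54.8% had a log2 fold change above 0 and 27.4% one at least as large as that of Adgre1. By its mean sum of 45.4 SRPBM, Adgre1 ranked 153 of 4733 host genes, whose median was 0.916.

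**Figure D3:**
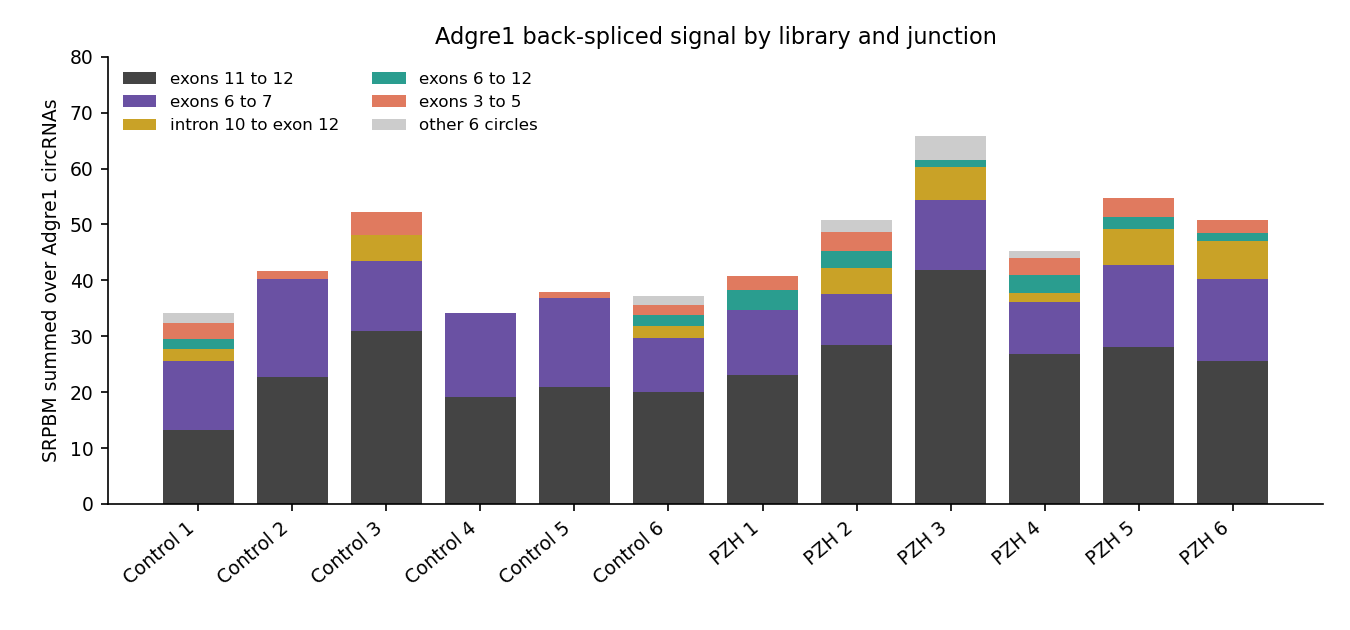
SRPBM summed over the Adgre1 circRNAs in each library, stacked by junction (bars from 0; 6 Control libraries left, 6 PZH libraries right). The sums run from 34.0 to 52.4 in Control and from 40.6 to 65.7 in PZH, and Control 4 consists of exons 11 to 12 and 6 to 7 alone.

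The makeup of the signal was also compared, as a description. Exons 11 to 12 made up 56.2% ± 5.00 of Adgre1 SRPBM with PZH and 52.9% ± 7.22 without it (SD over 6 libraries each). For exons 6 to 7 the share was 23.7% ± 5.08 with PZH, where it ran from 18.2% to 29.2%, and 35.6% ± 8.72 without it, where it ran from 24.1% to 44.0%. The other 9 circles took 0% to 25.2% of the sum in Control and 14.7% to 25.8% in PZH. Grouped by their ends, the 3 circles closing at exon 12 summed to 35.6 ± 7.48 SRPBM with PZH and 23.3 ± 6.52 without it. There, 5 Control libraries lay below the lowest PZH library and 3 PZH libraries above the highest Control library. Circles opening at exon 6 summed to 14.7 ± 1.98 with PZH and 14.5 ± 2.14 without it, and those opening at exon 3 to 2.77 ± 1.78 and 1.91 ± 1.42. The circle of exons 6 to 12 counts both as opening at exon 6 and as closing at exon 12. The 4 circles that lie within exons 3 to 9 summed to 14.8 ± 2.39 and 15.7 ± 2.56. In SRPBM, PZH minus Control was thus 12.2 for the circles closing at exon 12 and 11.7 for the gene. It was 0.162 for those opening at exon 6, 0.863 for those opening at exon 3 and -0.916 for those within exons 3 to 9.

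The ratio of the abundant circles sets exons 11 to 12 against exons 6 to 7 within each library, where scaling between libraries cancels. Exons 11 to 12 over exons 6 to 7 gave 1.07, 1.31, 2.45, 1.27, 1.32 and 2.12 in Control 1 to 6. In PZH 1 to 6 the ratio was 1.99, 3.08, 3.35, 2.92, 1.90 and 1.72. The 4 lowest ratios were those of Control 1, 4, 2 and 5, and the 3 highest those of PZH 4, 2 and 3, with the others between 1.72 and 2.45. On the log2 scale the ratio was higher by 0.67 in PZH (1.27 ± 0.42 against 0.60 ± 0.47, SD over 6 libraries each), a description, as both circles belong to the same contrast. Across the 12 libraries the levels of these circles were not seen to move together (r = -0.12, permutation p = 0.723, and rho = -0.23, permutation p = 0.473, with adjusted p of 0.826 and 0.657 over 8 relations). Within the groups r was 0.05 in PZH and 0.14 in Control, and without the 2 libraries farthest from the median of exons 11 to 12 it was -0.25.

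**Figure D4:**
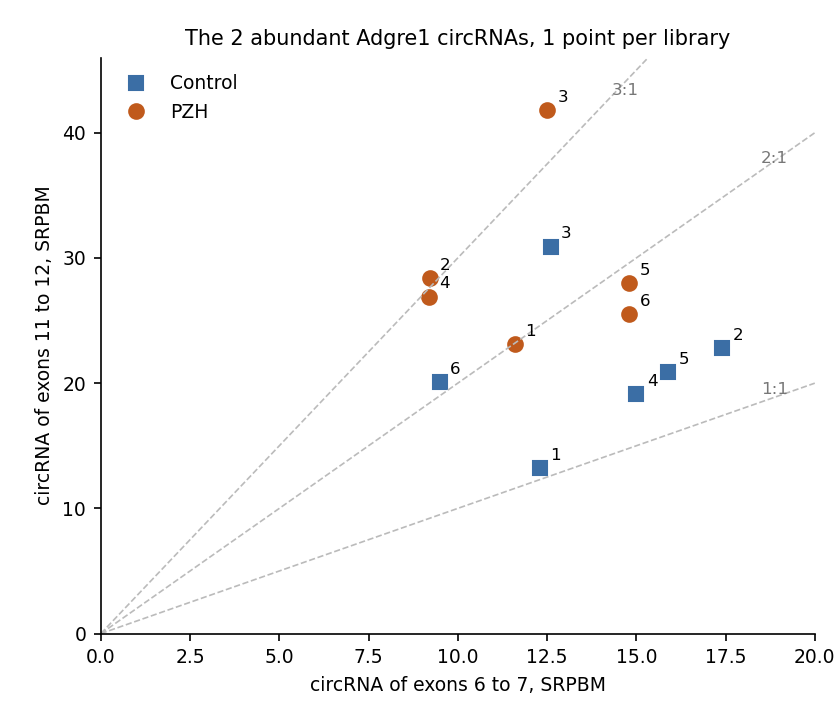
SRPBM of the circle of exons 11 to 12 against that of exons 6 to 7, 1 point per library with its replicate number (blue squares, Control; orange circles, PZH); dashed lines mark ratios of 1, 2 and 3. Control 1, 2, 4 and 5 lie between the lines of 1 and 2, and PZH 2 and 3 lie above the line of 3.

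The table gives no cell of origin, so the macrophage label was set beside circles of other macrophage genes. Of 13 genes that define macrophages or Kupffer cells, 4 hosted any circRNA. Mrc1, the mannose receptor, had a circle of exons 12 to 15 at 61.7 ± 6.39 SRPBM with PZH and 58.4 ± 8.55 without it (SD over 6 libraries each), but this receptor is also made by liver sinusoidal endothelium. Msr1, a scavenger receptor, was above 0 in 4 PZH libraries and 1 Control library, with a highest value of 8.23 SRPBM. Csf1r, the receptor of the macrophage growth factor CSF1, and Marco, another scavenger receptor, were each above 0 in a single Control library (0.766 and 0.945 SRPBM). In the table used here, no circRNA was assigned to Cd68, Clec4f, Vsig4, Timd4, Cd163, Cd5l, C1qa, C1qb or C1qc. Of these 13 genes, Mrc1 alone was above 0 in all 12 libraries, as Adgre1 was.

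A longer list of 68 macrophage and Kupffer cell genes besides Adgre1 gave 113 circRNAs from 34 hosts, of which 20 were tested. Their log2 fold changes were above 0 for 10 and below 0 for 10, 0 passed the threshold, and the median was 0.03 (0.06 over all circRNAs tested). Besides that of Mrc1, the tested circles of highest mean included those of Mertk, a receptor for the uptake of dead cells (exons 3 to 4), and Abca1, a cholesterol exporter (exons 3 to 5). Mertk stood at 27.2 ± 10.2 SRPBM with PZH and 22.9 ± 8.47 without it, and Abca1 at 27.5 ± 4.60 and 24.6 ± 5.91. Circles of the transcription factor gene Mitf (exons 6 to 7, 20.2 ± 6.07 and 23.5 ± 6.52) and of Picalm, an endocytosis adaptor (exons 14 to 20, 13.5 ± 3.68 and 15.6 ± 4.52), were lower in mean with PZH by less than 1 SD. That of Ikzf1, the Ikaros transcription factor of blood cells (exons 2 to 3), was listed at 0 in 3 PZH libraries and 1 Control library and reached 53.5 and 56.7 SRPBM in the others. Its mean was 23.6 ± 26.1 SRPBM with PZH and 40.4 ± 20.9 without it, with the lowest log2 fold change among the tested circles of the list (-2.10, SE 1.22). Several of these genes are also active in hepatocytes or endothelium. Summed over the list without Adgre1, SRPBM was 206 to 280 in PZH and 172 to 335 in Control, so that the Control range enclosed that of PZH. Within these sums, Ikzf1 alone ran from 0 to 56.7 SRPBM over the 12 libraries.

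**Figure D5:**
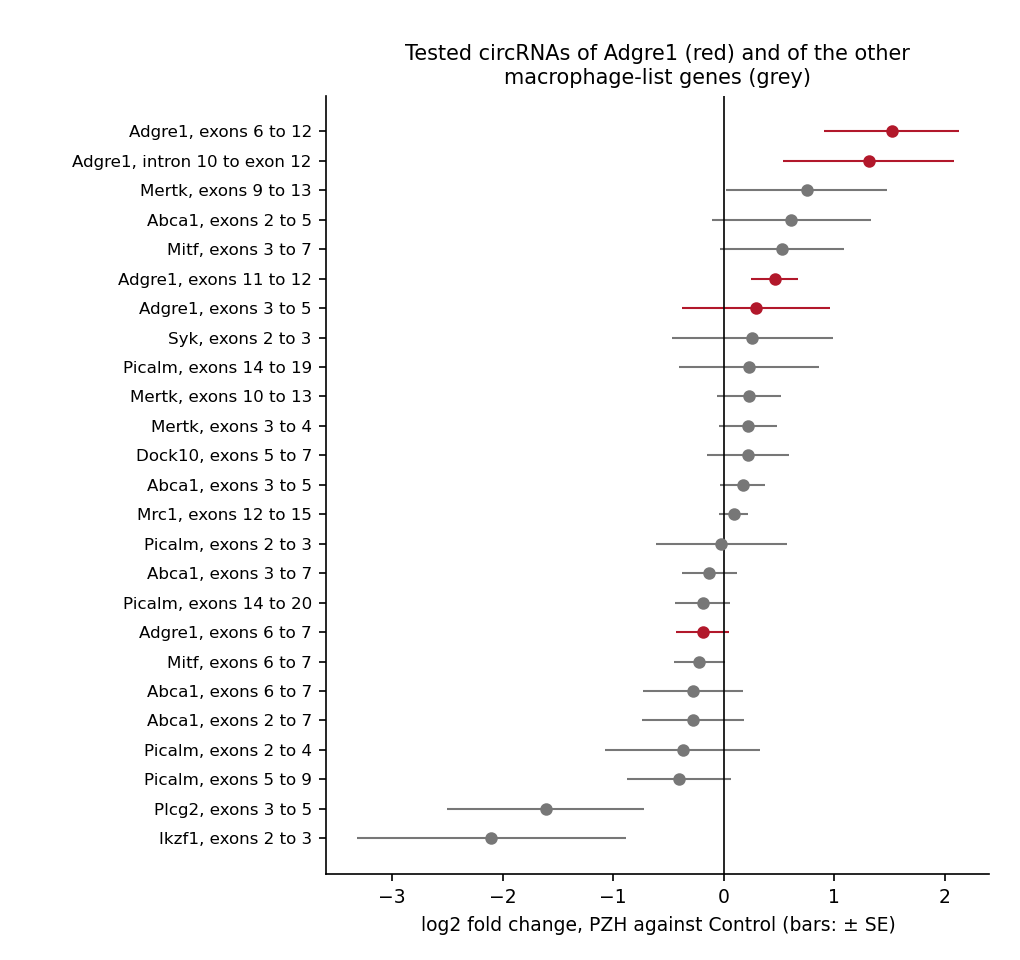
Log2 fold change of PZH against Control (points, with bars of 1 SE; limma on log2(SRPBM + 0.636), 6 libraries per group) for the 5 tested Adgre1 circRNAs (red) and the 20 tested circRNAs of the other macrophage-list genes (grey). The Adgre1 circles run from -0.19 to 1.52 and the others from -2.10 to 0.75.

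Few circles came from the other adhesion G protein-coupled receptors. Of 28 genes of the family besides Adgre1, 4 hosted circRNAs: Adgre5, Adgrl2, Adgra3 and Adgrg3, with mean host sums of 1.19, 0.813, 0.837 and 0.0525 SRPBM. The only tested member was a circle of exons 8 to 10 of Adgre5, which encodes the leukocyte antigen CD97, the EGF-repeat receptor of the same subfamily. It was above 0 in 2 PZH and 5 Control libraries, at up to 3.23 and 2.95 SRPBM, with a log2 fold change of -0.76 (SE 0.60). At 11 junctions, Adgre1 had more than most hosts: 5.68% of host genes had at least as many, and the median was 2.00.

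Circles of other cell types were followed by the same kind of list. Neutrophil markers (14 genes) hosted 0 circRNAs, and T, B and NK lymphocyte markers 3, summing to at most 4.02 SRPBM in a library. Liver endothelial markers summed to 56.7 to 72.6 SRPBM in PZH and 56.8 to 86.9 in Control, with 3 of 12 tested circRNAs above a log2 fold change of 0. Cholangiocyte and progenitor markers summed to 73.0 to 108 and 66.9 to 113, with 6 of 10 above 0, and hepatocyte markers to 974 to 1469 and 956 to 1506, with 27 of 51 above 0. Hepatic stellate cell and fibroblast markers summed to 11.8 to 30.9 in PZH and 3.59 to 13.8 in Control, with 4 of 5 above 0. No circRNA of the lymphocyte list was above 0 in enough libraries to be tested, and 0 tested circRNAs of the other lists passed the threshold. Hepatic stellate markers, at 20.4 ± 8.23 SRPBM with PZH and 8.03 ± 4.44 without it, had the higher mean in PZH as Adgre1 did. So did the cholangiocyte list (95.3 ± 12.8 and 81.6 ± 18.6), the hepatocyte list (1226 ± 174 and 1186 ± 207) and the lymphocyte list (0 to 4.02 and 0 to 2.80, with medians of 1.11 and 0). The mean was lower with PZH for the endothelial list (62.8 ± 5.57 and 68.6 ± 11.6) and for the macrophage list without Adgre1 (260 ± 28.8 and 269 ± 54.9). Most of the cholangiocyte sum came from a single gene, Fgfr2, at 81.2 ± 10.1 SRPBM with PZH and 65.6 ± 11.9 without it. The sums of all these lists overlapped between PZH and Control, and the part of these lists in the Adgre1 values was not tested.

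Across the 12 livers, the Adgre1 sum was set beside the 944 other host genes above 0 in every library, on the log2 scale. The median correlation was 0.13, which measures likeness over libraries and is given with no p because the closest genes were picked as such. The closest was Map2k5, the kinase upstream of ERK5, with r = 0.90 and rho = 0.92, and r within the groups of 0.74 in PZH and 0.93 in Control. Fgfr2, a fibroblast growth factor receptor (0.82), Sfmbt1, a chromatin protein (0.81), Rere, a nuclear receptor co-regulator (0.79), and Ttc3, a ubiquitin ligase (0.77), followed. Fgfr2 is the gene that makes up most of the cholangiocyte list sum. Without PZH 3 and Control 4, the libraries farthest from the Adgre1 median, these r were 0.68 to 0.86. All 5 had higher means in PZH, with log2 fold changes of 0.31 to 0.65.

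With the group means subtracted, Map2k5 was again closest (r = 0.84), and the next were Kdm1a, a histone demethylase (0.79), Pzp, a plasma protease inhibitor (0.75), Etv6, an ETS family repressor (0.75), and Itch, a ubiquitin ligase (0.74). Of these, Pzp, Etv6 and Itch had lower means in PZH, and their r over all 12 libraries were -0.20, 0.10 and 0.05. None of the 9 genes is on the macrophage list.

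Of the macrophage list, 6 hosts were above 0 in every library. Mrc1 had the highest correlation with Adgre1 (r = 0.69, permutation p = 0.0137, adjusted p = 0.109, and rho = 0.64, permutation p = 0.0289, adjusted p = 0.231, over 8 relations). Its r was 0.74 within PZH, 0.69 within Control and 0.73 without the 2 farthest libraries. On ranks the likeness was weaker in Control, with rho of 0.31 there and 0.77 within PZH. Mertk had r = 0.59 (permutation p = 0.0455, adjusted p = 0.182) and rho = 0.56 (permutation p = 0.0637, adjusted p = 0.255), with 0.30 within PZH, 0.58 within Control and 0.38 without the 2 farthest libraries. Mitf, Dock10, Abca1 and Picalm had r of 0.19, 0.18, -0.03 and -0.29 (permutation p = 0.357 to 0.929, adjusted p = 0.714 to 0.929). None of the 6 passed the adjustment. The shuffles ran over all 12 libraries regardless of group, so each p also takes in any difference between PZH and Control. The 5 closest hosts over the 12 libraries, none of them on the list, had higher r than Mrc1 (0.77 to 0.90). The Adgre1 sum against the summed SRPBM of the library gave r = 0.33 (permutation p = 0.290, adjusted p = 0.714) and rho = 0.29 (permutation p = 0.355, adjusted p = 0.657), with 0.47 within PZH, 0.21 within Control and 0.44 without the 2 farthest libraries.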

How the data were processed

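The authors deposited a signal per circRNA and library, with SRPBM as the unit in the table's header. Trim Galore, STAR and GRCm38 come from the submitters' processing notes, and Trizol extraction and a TruSeq RNA kit from the labels' protocols. The versions, the circRNA caller and the formula of SRPBM were not given in the sources used here. Among values up to 8.5 steps, where the smallest value of a library is 2 steps, 56.8% to 63.8% were near a whole step (0.05 below to 0.1 above), so that whole reads could not be recovered and no count model was used.

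Host genes were assigned from GENCODE M21: of 16445 circRNAs, 15737 matched exon boundaries of a gene at both ends and 628 at 1 end. CircRNAs above 0 in at least 6 of 12 libraries, and host gene sums by the same rule, were compared with limma 3.58.1 (R 4.3.3, variance trend) on log2(SRPBM + 0.636), the pseudocount being the median over libraries of the smallest value. Tests were 2-sided with Benjamini-Hochberg adjustment over all features and a threshold of 0.05. The code was tested on simulated data. Correlations had 100000 shuffles each (scipy 1.17.1) over all 12 libraries regardless of group, and these 8 relations were chosen after the data were seen. Python 3.11.15, numpy 2.4.6, pandas 2.3.3 and matplotlib 3.10.9 were also used.

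The gene and the lists were chosen with earlier results of these data known. The rule named every Adgre1 circRNA above 0 in at least 6 libraries, the 5 closest hosts by each measure and up to 6 tested members by mean of the macrophage and receptor lists. It also covered 2 members of each other list, which are given here by list only. Alternatives were other pseudocounts, filters, scalings, no variance trend, a replicate block, other sums and leaving out each library.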

Additional observations from a re-analysis of the deposited data

Results flagged for a closer look

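For 38 groups of 6 values each, the distance of the highest or lowest library from the nearest other one was divided by the range of the group and set against Dixon's 95% critical value. It was exceeded 4 times, at a share of the range of 0.694 to 0.759. That value is set so that about 1 in 20 groups of independent, normally distributed values exceed it. The groups here hold values of 0 and shares and sums of the same circles, so the 4 cannot be read against that rate. The circle of exons 11 to 12 stood at 41.8 SRPBM in PZH 3, with the next PZH library at 28.4 and the lowest at 23.1. In the same library the circle of exons 3 to 5 was listed at 0, with the other PZH libraries at 2.33 to 3.36. In Control 1 the circle of exons 11 to 12 held 38.6% of the Adgre1 signal, against 54.1% to 59.0% in the other Control libraries. Circles of lymphocyte markers summed to 2.80 SRPBM in Control 5, with the others at 0 to 0.720.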

How the results depend on the processing

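The Adgre1 sum kept its direction and did not pass in any of 10 alternatives (log2 fold change 0.30 to 0.37, adjusted p 0.382 to 0.749) or without any 1 library (0.30 to 0.45, adjusted p 0.342 to 0.723). Rescaling the libraries gave 0.33 (median of ratios) and 0.32 (summed SRPBM). None of the 5 tested Adgre1 circles passed in any setting that gave them a value; the other 6 were not followed here, and only exons 6 to 7 and 11 to 12 enter when every library must be above 0. Exons 6 to 7 stayed below 0 (-0.29 to -0.12) and exons 11 to 12 above 0 (0.33 to 0.57), as did exons 6 to 12 (1.20 to 2.88) and the circle from intron 10 (1.06 to 2.06). Exons 3 to 5 ran from -0.06 without Control replicate 4 to 0.70 without PZH replicate 3, the 2 libraries where they were listed at 0. The median of the macrophage list lay between -0.08 and 0.15. Over the whole table, the number of circRNAs called higher was 2, and 19 with no filter, 8 among those above 0 in all libraries and 1 without any 1 library (1 to 1). Lower calls numbered 0, and 11, 2 and 0 to 2 in the same settings. With the replicate number as a block, 1 was called higher, and the log2 fold change of the Adgre1 sum was 0.37 (adjusted p = 0.694). Same-numbered libraries did not deviate together (correlations -0.12 to 0.03), and 0 of 12 libraries were closest to their own number. This compares same-numbered libraries alone and cannot show whether the numbers follow some other order. The main fit did not use them. Few reads limit the circles other than the abundant pair, at no more than 20.7 read-pair equivalents in a library.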
